A study of Homo sapiens with 2 samples.

Results

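Regions of strongly open chromatin that were found in control cells and had no overlapping peak after SMARCA4 knockdown are described here in the line Z-138, which was established from human mantle cell lymphoma, a cancer of mature B cells. Open chromatin was mapped by ATAC-seq, in which a transposase cuts accessible DNA and tags it for sequencing. The groups were Z-138 cells with an shRNA against SMARCA4 and Z-138 cells with a control shRNA, 1 library each, and both were cultured with doxycycline. Peak names in both lists also carry the term DMSO, a common solvent control; the sources used here do not say how many hairpins or clones were used. The peaks were chosen by measured values: a strong control-only peak is a control peak on chromosomes 1 to 22 or X, with the authors' fold enrichment over background at 10 or more, that no knockdown peak overlapped by 1 bp. The rule was met by 549 of 55124 control peaks, out of 96664 peaks in both lists together.

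SMARCA4 is an ATPase that drives SWI/SNF chromatin remodelling complexes, which slide or evict nucleosomes and so expose DNA to transcription factors. In other cell systems these complexes are known to keep distal enhancers accessible, while many promoters depend on them less. The series ties SMARCA4 to the response of mantle cell lymphoma to ibrutinib, which blocks the kinase BTK, combined with venetoclax, which blocks BCL2. Positions are given in the build hg19, counted from 1. An hg19 annotation and genome sequence were not used here, so regions carry no gene names, no class of promoter or enhancer, and no sequence.

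Depth was 9.76 M reads or fragments in the knockdown and 6.89 M in the control library, as recovered from the lists for a genome taken as 2.7 Gb. The knockdown library was thus the deeper one, yet its list held fewer peaks, 41540 against 55124 in the control list. At peaks that overlapped between the lists, the knockdown summit was a median 1.13 times the control summit in reads. The ratio of the lowest backgrounds of the libraries was higher, at 1.34. How much of the control-only set goes with this difference between the libraries was not tested. SMARCA4 itself cannot be checked in a peak list. With 1 library per group there is no test between groups, and the spread between cultures is unknown. Intervals below are exact binomial (Clopper-Pearson) 95% intervals; they cover counting error over peaks only, and sequencing reads without molecular identifiers are not independent molecules.

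Control-only peaks made up a small part of the strongly enriched control peaks. Of the 10321 control peaks with a fold of 10 or more, 549 had no knockdown peak, or 5.32% (4.89 to 5.77%), while 9772 had one. Over all control peaks the share without a knockdown peak was 39.5%. In the opposite direction, 45 of 9589 knockdown peaks with a fold of 10 or more had no control peak, or 0.469% (0.343 to 0.627%), against 20.6% over all knockdown peaks. These shares come from the values that chose the peaks and are given as a description. Each fold is relative to the background of its own library, so a fold of 10 is not the same strength in both lists.

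The 549 peaks had a median fold of 11.1 (quartiles 10.4 and 12.3) and reached 19.2. Their summits held a median of 16 stacked reads (14 and 18), with a lowest value of 12 and a highest of 34. The set was weighted toward its lower limit. Between folds of 10 and 10.5, 167 of 1461 control peaks were control-only, or 11.4%, and from 15 upward 21 of 1864, or 1.13% (0.699 to 1.72%). By fold, 6 of the 1000 top control peaks belonged to the set, and its highest member stood at rank 293 of the control list.

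Just inside the limit lay chr8:63075766-63075988, with a fold of 10.01 and 17 reads, and chr4:88443206-88443454 and chr7:51540701-51540862, both with a fold of 10.01 and 14 reads. The fourth, chr12:80384472-80384792, had a fold of 10.03 and 16 reads. Just outside were chr14:93234669-93234882, chr16:10881318-10881524, chr2:120405094-120405311 and chr3:113325736-113325981, each with a fold of 9.99 and 12 reads and no knockdown peak. On the side of the overlap rule no such crowding was present. Of the 9772 strong control peaks with a knockdown peak, 0 shared 10 bp or fewer with it and 4 shared 50 bp or fewer. Of the 549 control-only peaks, 8 had a knockdown peak within 500 bp.

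Absence from the knockdown list does not mean that chromatin was closed, but it sets a ceiling on the knockdown signal. For each control-only peak the control summit was multiplied by 1.34, the ratio of the lowest backgrounds of the libraries, which takes in read number and the length of the extended reads, and the lowest summit that the knockdown list would have called at that background was computed. The calling limit of the knockdown list at these places had a median of 5 reads (lowest 4, highest 9). Scaled control summits had a median of 21.5 reads (lowest 16.1, highest 45.6). The highest knockdown summit that would have stayed uncalled was therefore a median of 18.6% of the scaled control summit (quartiles 16.6 and 20.7%), and lay between 11.2 and 24.8% for the 549 peaks. The background was assumed to scale with depth; at strong peaks found in both lists the knockdown background was a median 0.858 times the scaled one (quartiles 0.731 and 0.982). The shortest peak in the knockdown list was 89 bp, so a taller but narrower stack could also have gone uncalled. Control summits were chosen for being high, so these percentages describe this pair of libraries and are not an estimate of the change.

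**Figure D1:**
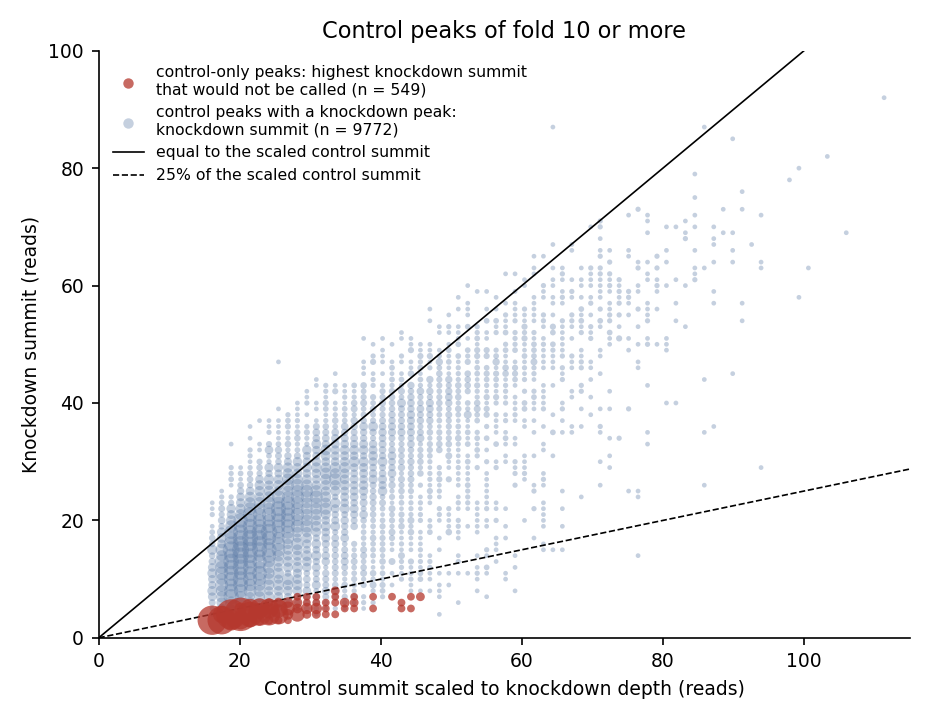
Knockdown summit in reads (vertical axis) against the control summit scaled to knockdown depth in reads (horizontal axis) for control peaks of fold 10 or more; larger points hold more peaks. For the 549 control-only peaks (red) the vertical value is the highest summit that the knockdown list would not call, for the 9772 others (blue) the summit of their knockdown peak. The red points lie below the dashed 25% line, where the blue points are sparse but not absent.

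The control-only peaks joined a tail of strong control peaks whose knockdown peak was weak. Among the 9772 strong control peaks with a knockdown peak, the knockdown summit was a median 74.5% of the scaled control summit (1st and 99th percentiles 21.3 and 129%). It was below 25% at 236 of them, or 2.42%, and below 50% at 1999, or 20.5%. The control-only peaks and these 236 together came to 785, or 7.61% of the strong control peaks. Taken from the other side, 9544 strong knockdown peaks had a control peak, and the scaled control summit was a median 110% of the knockdown summit. It was below 25% at 0 of them and below 50% at 103, or 1.08%. With the median ratio of summits at shared peaks as the scale, the medians were 88.2% for strong control peaks and 92.7% for strong knockdown peaks. Below 25% lay 93 strong control peaks with a knockdown peak, or 0.952%, and 1 strong knockdown peak with a control peak, or 0.0105%. A ceiling below 25% was then found for 421 of the 549 control-only peaks, with a highest value of 29.4%. On that scale the shares below 50% were 13.3% for strong control peaks and 2.91% for strong knockdown peaks.

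Some peaks fell on the other side of the rule by very few reads. At chr18:62480161-62480429 the knockdown list had a peak of 89 bp with 4 reads and a fold of 3.42, where the control peak had 36 reads and a fold of 19.6. The knockdown summit there was 8.28% of the scaled control summit, below the ceiling of each of the 549 control-only peaks. At chr1:242296342-242296629 there were 6 knockdown reads against 38 control reads, or 11.8% after scaling. At chr8:115928029-115928345 the values were 7 knockdown reads and 41 control reads, or 12.7%. These peaks were picked as the lowest percentages after the values were seen. The set thus has no gap at its edge, as knockdown peaks of 4 to 7 reads kept these regions out of it.

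Control-only peaks were narrower than the other strong control peaks in each of the 6 bands of fold examined. Their median width was 202 bp (median interval 197 to 208 bp), against 305 bp (301 to 309 bp) for strong control peaks with a knockdown peak. A width under 200 bp was found for 261 of the 549, or 47.5% (43.3 to 51.8%), against 20.2% (19.4 to 21%). A width of 300 bp or more was found for 69, or 12.6%, against 51.2%. No control-only peak reached 600 bp (interval up to 0.67%; a limit of 3 counts allows 0.546%), while 934 of the others did, or 9.56%. Between folds of 10 and 10.5 the median widths were 192 bp and 262 bp, and at folds of 15 or more 258 bp and 330 bp. With the others averaged over 6 bands of fold in the proportions of the control-only peaks, their width was 289 bp and the difference became -87.4 bp instead of -103 bp. It shrank to -33 bp (268 bp against 301 bp) when partners were required to cover 50% of the control peak. The rule itself favours narrow peaks, since a wider peak has more room for an overlap of 1 bp. How much of the difference this makes was not tested. The bands match fold only, and control-only peaks had fewer summit reads in each, with medians of 24 against 32 at folds of 15 or more.

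**Figure D2:**
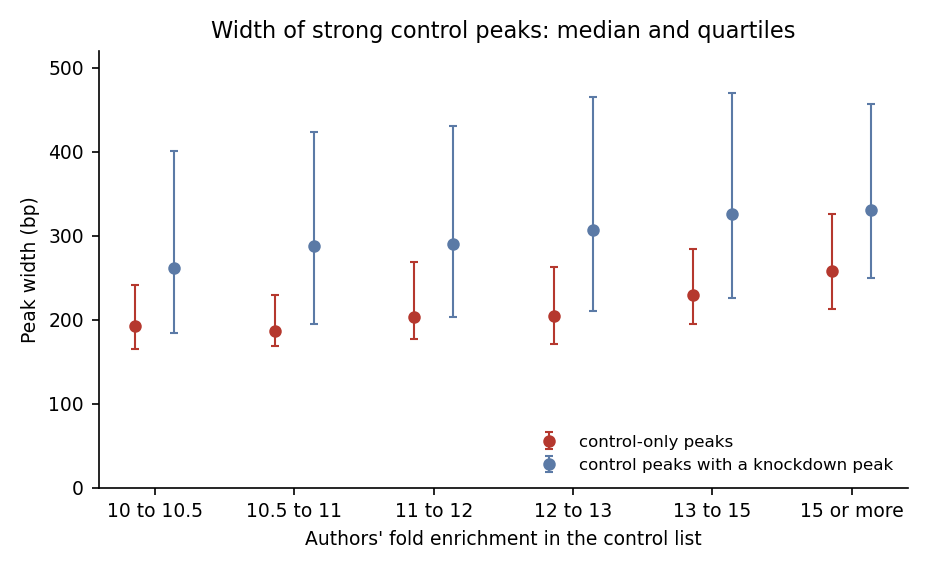
Peak width in bp (vertical axis) in 6 bands of the authors' control fold (horizontal axis) for control-only peaks (red) and control peaks with a knockdown peak (blue). Points are medians and bars run between the quartiles; the red median is below the blue one in each band, at 192 against 262 bp in the lowest and 258 against 330 bp in the highest.

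Their summits also sat closer to the peak centre. The median distance from summit to centre was 14 bp, or 13.9% of the way to the edge, against 30 bp, or 20.6%, for the strong control peaks with a knockdown peak. The sets were not matched for width, with medians of 202 bp and 305 bp. Whether the difference goes beyond that in width was not tested. The widest control-only peak, chr10:57901855-57902389, measured 535 bp with 21 reads and a fold of 11.7. Next came chr1:153918470-153918977 with 508 bp, chr8:133288457-133288944 with 488 bp and chr11:7517282-7517757 with 476 bp. The last of the widest 6 were chr17:71128413-71128876 with 464 bp and chr2:165901106-165901561 with 456 bp. Folds of the last 5 lay between 10.1 and 11.5.

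The expected background at control-only peaks was lower. At the summit it had a median of 0.479 reads, which corresponds to 51.0 reads per 10 kb. At strong control peaks with a knockdown peak it was 0.705 reads, or 75 per 10 kb. Such a window around the summit takes in the peak itself, so these values do not describe the surroundings alone. The background was at the genome-wide floor for 19 of the 549, or 3.46% (2.10 to 5.35%), against 0.655% (0.505 to 0.836%). Where the background was below 0.3 reads, 76 of 391 strong control peaks were control-only, or 19.4% (15.6 to 23.7%). Where it was 1.5 reads or more, 1 of 1151 was, or 0.0869%. At a given fold a lower background goes with fewer summit reads, so background and summit are not separate measures.

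Between folds of 10 and 11 the same order was present. There 51 of 204 peaks with a background below 0.3 reads were control-only, or 25% (19.2 to 31.5%), against 1 of 181 with 1.5 reads or more, or 0.552%. By width in the same range of fold, 114 of 613 peaks from 150 to 199 bp were control-only, or 18.6% (15.6 to 21.9%). From 400 bp to under 600 bp 6 of 459 were, or 1.31%, and from 600 bp upward 0 of 186, with an exact upper bound of 1.96%. The narrowest class did not have the highest share, since 32 of 222 peaks under 150 bp were control-only, or 14.4% (10.1 to 19.7%). By summit height, 178 of 1220 strong control peaks with fewer than 15 reads were control-only, or 14.6%. From 30 to 39 reads 7 of 1284 were, or 0.545%, and from 40 reads upward 0 of 743, with an exact upper bound of 0.495%.

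**Figure D3:**
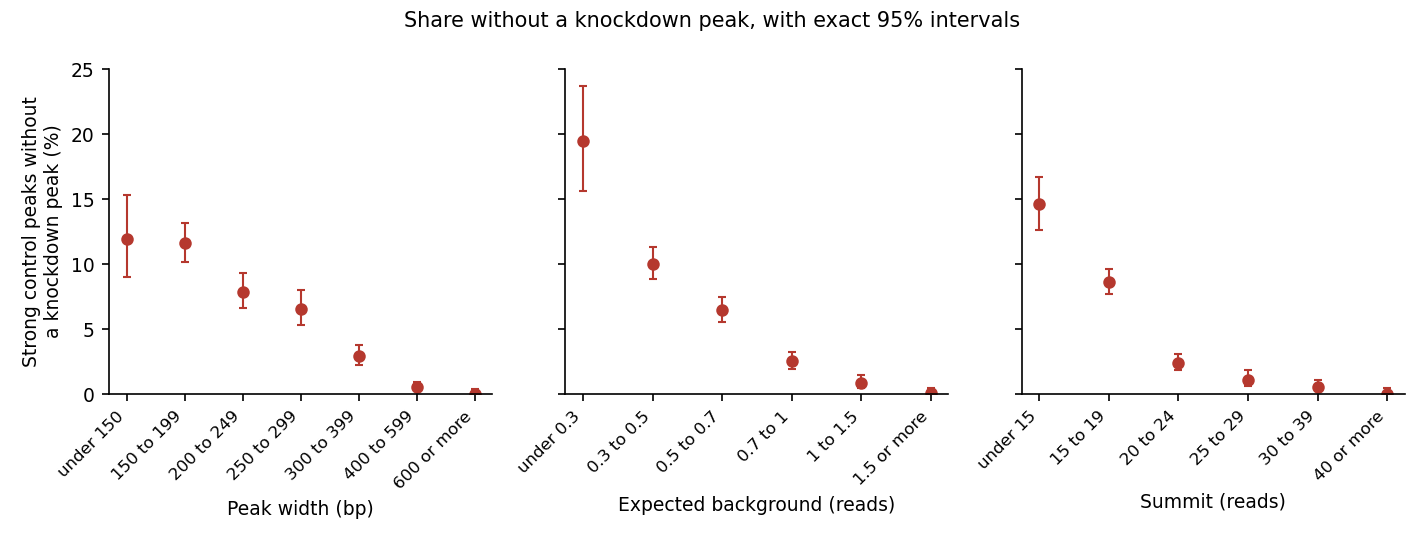
Share of strong control peaks without a knockdown peak in percent (vertical axis), by peak width in bp, expected background in reads and summit height in reads (horizontal axes, left to right). Points are shares with exact 95% intervals; the background panel spans the widest range, from 19.4% below 0.3 reads to 0.0869% at 1.5 reads or more.

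The 20 control-only peaks of highest fold lay on 15 chromosomes and had widths from 177 to 407 bp. A knockdown summit of 4 to 8 reads would have been called at these places, where the control summits held 19 to 34 reads, or 25.5 to 45.6 reads when scaled to knockdown depth. Around them, within 50 kb of the summits, lay 40 other control peaks, of which 26 had a knockdown peak, or 65% (48.3 to 79.4%); the share over all control peaks was 60.5%. Of the 20, 5 had no knockdown peak within that distance.

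Of the 20, 4 had no other peak of either list within 100 kb. The first was the strongest member, chr8:60489422-60489758, with a knockdown calling limit of 6 reads against 33 control reads, or 44.3 scaled reads, over a width of 337 bp. The second, chr13:58520592-58520809, had 32 reads in 218 bp, and its nearest other control peak was 249 kb away. The third was chrX:112766205-112766417, with a fold of 15.9 and 21 reads, whose nearest knockdown peak was at 262 kb. The fourth was chr4:106227443-106227818, with a fold of 15.1 and 22 reads in 376 bp, and its nearest knockdown peak was at 155 kb. At these places the control list itself held a single peak.

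A second kind of surrounding had neighbours kept in both lists. At chr3:111386656-111387062, which had a fold of 16.3 and 27 reads, 6 of 8 other control peaks within 50 kb had a knockdown peak. A knockdown peak with 9 reads lay 833 bp away from it and overlapped no control peak. At chr3:20122735-20123005, with a fold of 15.3 and 21 reads, 5 of 6 neighbours had one. The peak chr21:27276047-27276296 had a fold of 15.3 and 23 reads, and its 3 neighbours all had one, the nearest knockdown peak being at 7.68 kb. For chr6:103527811-103528085, with a fold of 15.4 and 34 reads, both neighbours had one. In these places the knockdown list had peaks within 50 kb of an uncalled one, though not always close. The nearest knockdown peak was at 39.5 kb for chr3:20122735-20123005 and at 42.9 kb for chr6:103527811-103528085.

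The next strongest members without a neighbour kept in both lists were chr14:52205535-52205786 (fold 16.6, 22 reads), chr5:96691370-96691756 (fold 15.8, 32 reads) and chr9:14961425-14961809 (fold 15.3, 33 reads). Each had 1 other control peak within 50 kb, which also had no knockdown peak. At chr13:109924366-109924559, chr13:40634520-40634716 and chrX:95905116-95905307 the single neighbour did have one; their folds were 16.8, 15.4 and 15, with 25, 21 and 19 reads. At chr15:88141015-88141191, a peak of 177 bp with a fold of 15.6 and 20 reads, 1 of 2 neighbours had one, and the nearest knockdown peak was at 7.06 kb. The same 1 of 2 held at chr11:83473650-83473975 (fold 17.3, 29 reads) and at chr10:30001038-30001316 (fold 15.1, 23 reads).

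The remaining peaks of the 20 had 3 neighbours each. At chr7:144515710-144515899, with a fold of 15.6 and 26 reads, 1 of 3 had a knockdown peak, which lay 16.5 kb away and held 63 reads. At chr3:178198632-178198889 (fold 16.5, 24 reads) 1 of 3 had one, and at chr17:53741692-53741909 (fold 15.7, 23 reads) 2 of 3. By summit reads the top 6 members were 5 of these 20 and chr2:132590517-132590817, which had 34 reads, a fold of 14.8 and a knockdown peak of 9 reads at 829 bp. The calling limit there was 8 reads against a scaled control summit of 45.6 reads.

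**Figure D4:**
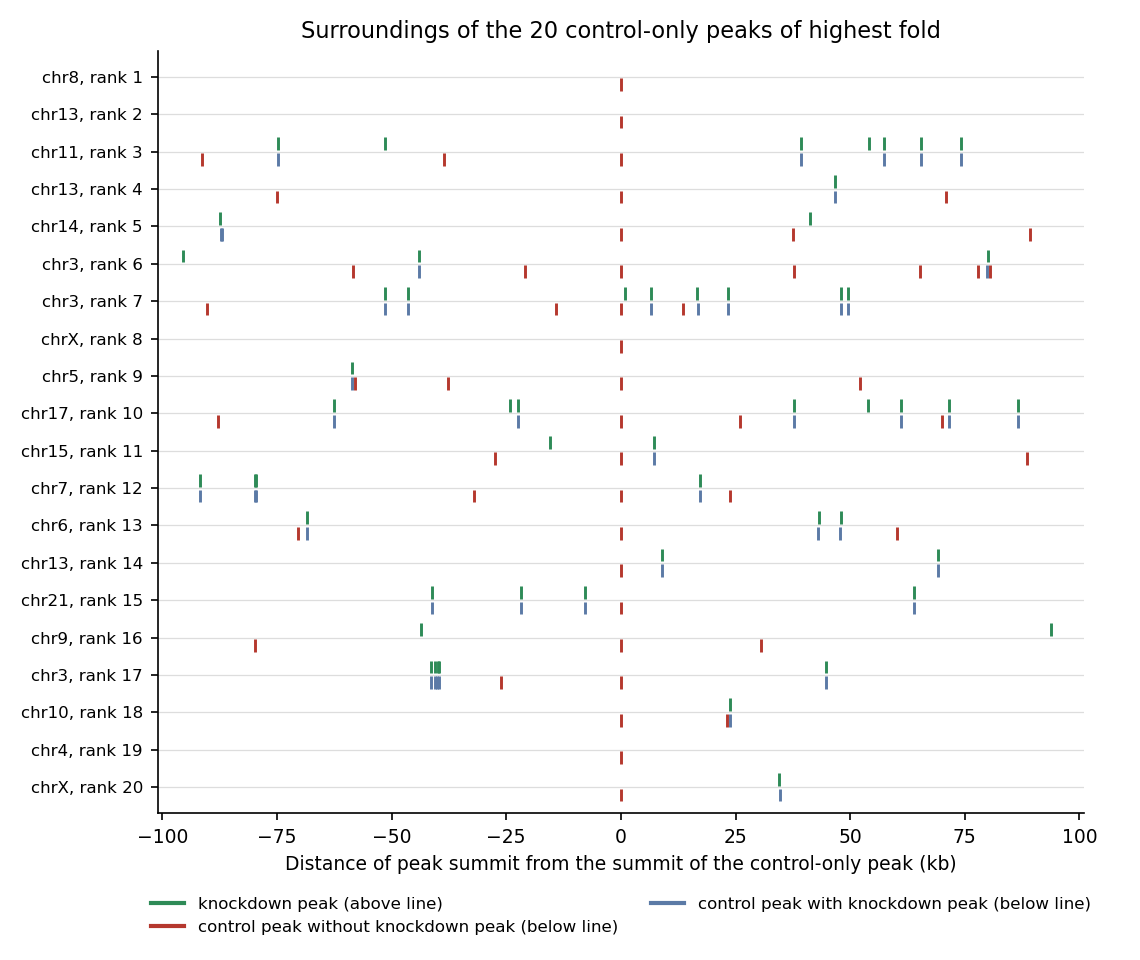
Peak summits of the knockdown list (above each line) and the control list (below each line) within 100 kb of the 20 control-only peaks of highest fold, ordered from the highest fold at the top; the horizontal axis is the distance in kb from the member's summit. Control peaks without a knockdown peak are red and those with one are blue; at 4 of the 20 lines no other summit is drawn.

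The nearest knockdown peak lay between 75 bp and 374 kb from control-only peaks. An overlap was excluded by the rule, and the same distance was not measured around other control peaks. The nearest knockdown peak was at a median of 27.5 kb (quartiles 11 and 58.1 kb). It was within 1 kb for 13 of the 549, or 2.37% (1.27 to 4.02%), and within 10 kb for 123, or 22.4%. That nearest knockdown peak overlapped another control peak in 427 cases, or 77.8% (74.1 to 81.2%), close to the 79.4% of all knockdown peaks that overlapped one. The closest were chr1:89738519-89738669, with a knockdown peak of 8 reads at 75 bp from its own 16 reads in the control, and chr11:110247867-110248056, with 6 knockdown reads at 167 bp and 12 control reads. Neither of these 2 knockdown peaks overlapped a control peak, and whether they mark the same element as the control peak was not tested. The next were chr1:153918470-153918977 at 182 bp, chr2:129193417-129193670 at 217 bp, chr10:11905812-11905985 at 223 bp and chr2:178499671-178499846 at 353 bp.

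Other members were far from any knockdown peak. For 59 of the 549, or 10.7% (8.28 to 13.6%), the nearest knockdown peak was over 100 kb away, on 18 chromosomes and with a median of 17 summit reads. The farthest was chr6:21213730-21213879, with 12 reads, a fold of 10.1 and a distance of 374 kb; 2 other control peaks within 50 kb of it had no knockdown peak either. After chrX:112766205-112766417 at 262 kb came chr12:129687078-129687258 at 233 kb, with a fold of 11.1 and 13 reads. Then followed chrX:37307514-37307736 at 228 kb, with a fold of 14.5 and 19 reads, chr14:40687604-40687825 at 199 kb, with a fold of 11 and 17 reads, and chr13:58520592-58520809, also at 199 kb. In 162 cases, or 29.5% (25.7 to 33.5%), no knockdown peak lay within 50 kb.

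Relative to the other strong control peaks, control-only peaks had fewer close neighbours in the control list. Another control peak lay within 500 bp of 21 of them, or 3.83% (2.38 to 5.79%), against 13% (12.3 to 13.6%) of those with a knockdown peak. Within 5 kb the shares were 12.6% and 21.5%, within 50 kb 81.4% (77.9 to 84.6%) and 85.7% (85.0 to 86.4%), and within 100 kb 95.4% and 96.7%. The interval of the 50 kb difference included 0 at folds of 12 and 15, with q-values of 1e-05 and with 20 summit reads. It excluded 0 at a fold of 8, under the other overlap rules, with lists of equal length and with bands of fold matched. Of the 21 control peaks found within 500 bp of a member, 3 had a knockdown peak, or 14.3% (3.05 to 36.3%), against 72.2% (69.7 to 74.7%) of 1267 found that close to a strong control peak with a knockdown peak and 60.5% of all control peaks. Beside a peak with a partner, 1 knockdown peak may overlap both control peaks, which the rule excludes beside a member.

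The control peaks around the set had knockdown peaks slightly less often than those around other strong peaks, but not under every choice. Among neighbours within 50 kb that had a fold below 10, 474 of 960 around members had a knockdown peak, or 49.4% (46.2 to 52.6%), against 55.5% (54.7 to 56.3%) of 15650 around strong control peaks with a knockdown peak. With neighbours of any fold the shares were 58.8% (55.9 to 61.6%) of 1180 and 63.5% (62.8 to 64.2%) of 19095. Members were left out as neighbours, so the strong neighbours in these counts, 220 around members, have a knockdown peak by construction. The shares of all other control peaks in 10 bands of fold, averaged over these neighbours, would give 61.5% in both cases. These windows take in control peaks within 500 bp. Beside a peak with a partner, the same knockdown peak may overlap both, which the rule excludes beside a member. Where the nearest control peak lay within 500 bp and had a fold below 10, it had a knockdown peak for 3 of 21 members. For strong control peaks with a knockdown peak the count was 849 of 1201. How much of the difference this makes was not tested. The difference of -4.71 percentage points for neighbours of any fold was -9.26 within 20 kb and -3.13 within 200 kb. It had the opposite sign at a fold of 15 or more (4.04, interval -12.0 to 17.9). The sign was also opposite with strength taken as 20 or more summit reads (4.22, interval -2.45 to 10.4). Both intervals include 0. They are those of the member share with the other share held fixed, and leave out the counting error of the other share.

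Few members lay close to another member. There were 18 pairs of neighbouring members with summits within 100 kb and no run of 3, so 36 of the 549, or 6.56% (4.63 to 8.96%), had another member that close. This share moved with the size of the set, at 12.9% with 1794 members (fold of 8) and 3.51% with 171 (fold of 12). It was not measured for an equal number of other strong control peaks, so members cannot be called scattered or clustered. Between the members of a pair no knockdown peak was called in 10 of 18 cases, and no peak of either list in 7. The closest pair was chr5:115988097-115988259 and chr5:116006990-116007245, with summits 18.9 kb apart, 13 and 23 reads and no other peak between them. On chromosome 21, chr21:29977556-29977778 and chr21:30000111-30000371 had folds of 14 and 13.3, were 22.5 kb apart and likewise had nothing between them. On chromosome 3, chr3:84774076-84774311 with 23 reads and chr3:84805050-84805353 with 29 reads were 31.0 kb apart, and the 1 control peak between them had no knockdown peak. By contrast, the pair from 196401072 to 196445104 on chromosome 2 enclosed 3 other control peaks, and all 3 had a knockdown peak.

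Control-only peaks were found on 22 of the 23 chromosomes. Chromosome 3 had the highest share, with 53 of 746 strong control peaks, or 7.10% (5.37 to 9.19%), against 5.32% over all chromosomes. Chromosome 19, known for its high gene density, had 1 of 193, or 0.518% (0.0131 to 2.85%). On chromosome 20 there were 0 of 102, with an interval that ends at 3.55%; a limit of 3 counts allows 2.94%. Chromosomes 17 and 22 had 7 of 252 and 1 of 49, or 2.78% and 2.04%, with intervals that included the overall share. These 3 of 23 intervals that excluded the overall share are not adjusted for the number of chromosomes, and at a fold of 12 or more 0 of 23 did. Among control peaks with a fold below 10, 393 of 852 on chromosome 20 had no knockdown peak, or 46.1% (42.7 to 49.5%), and 422 of 1331 on chromosome 19, or 31.7% (29.2 to 34.3%), against 47.4% on all chromosomes.

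**Figure D5:**
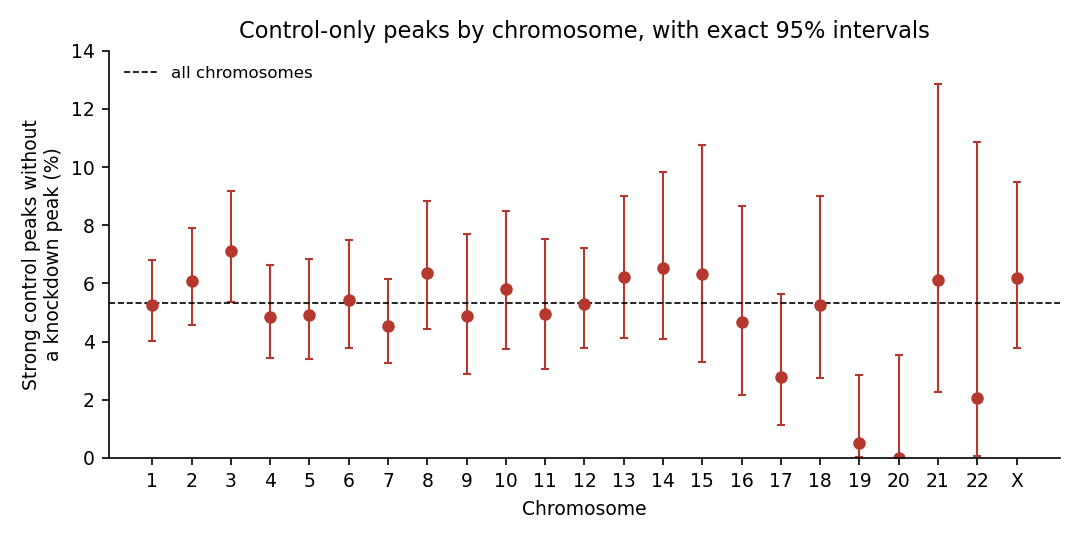
Share of strong control peaks without a knockdown peak in percent (vertical axis) on each chromosome (horizontal axis), with exact 95% intervals; the dashed line is the share over all chromosomes, 5.32%. The intervals of chromosomes 19 and 20 end below the line and that of chromosome 3 begins just above it.

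The 45 strong knockdown peaks without a control peak formed a smaller and less separate set. The 549 control-only peaks had a median fold of 11.1, 16 summit reads and a width of 202 bp, and the 45 knockdown-only peaks had 10.6, 15 reads and 160 bp in their own list. The highest folds were 19.2 and 13.2. A peak of the other list lay within 500 bp of 8 of the 549 control-only peaks, or 1.46% (0.631 to 2.85%), and of 8 of the 45 knockdown-only peaks, or 17.8% (8.0 to 32.1%). The median distance to the other list was 27.5 kb for control-only and 12.7 kb for knockdown-only peaks; the list searched from the control side is the shorter one.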

How the data were processed

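Each library came with 1 deposited list of peaks in 10 columns. Tools in the submitters' processing notes are bcl2fastq 2.17.1.14, BWA and MACS2, with the build hg19; the sources used here give neither parameters nor the shift of insertion sites. The deposited fold is a ratio: summit reads plus 1, over background reads plus 1. The deposited −log10 p- and q-values are the caller's for the summit, and the deposited score is derived from the −log10 q-value; the score was not used for any result. Lists were made separately for each library, and peaks on chromosome Y were left out.

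Summit reads and background were solved from the fold and p-value of each peak with a Poisson tail (SciPy 1.17.1), which gave back the −log10 p-values within 4.15e-05; the solver was tested on simulated data. The depth scale, 1.34, is the ratio of the lowest backgrounds, knockdown over control. The calling limit is the lowest summit whose −log10 p reaches 3.76, the lowest in the knockdown list. No test between groups was possible with 1 library each. Members, fold limits and comparisons were chosen with earlier results of these data known. Named regions are the 20 of highest fold, the 6 with most reads, the 6 widest, the 6 nearest to and the 6 farthest from a knockdown peak, 4 on each side of the fold limit, and any run of 3; others were picked after their values were seen and are marked so or stand as examples of pairs.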

Additional observations from a re-analysis of the deposited data

How the results depend on the processing

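No paired analysis was possible because each group has 1 library, and for the same reason no replicate could be left out. The 11 results were recomputed under alternative settings, each of which applied to some of them, and this gave 87 recomputed values. Of these, 1 was chosen after seeing the data (only neighbours with a fold below 10). Among the 87 values, 40 stayed within the interval, or within 1.5 times for counts, 44 moved and 3 changed sign. Intervals of differences held the other group fixed. A fold of 8 gave 1794 control-only peaks (9.91% of strong control peaks), a width difference of -89 bp, 12.9% of members within 100 kb of another and 349 knockdown-only peaks. A fold of 12 gave 171 (3.07%), 3.51% within 100 kb, 4 knockdown-only peaks and 0 chromosomes outside the overall share, where there were 3 at a fold of 10. A fold of 15 gave 21 (1.13%), differences of -72 bp in width, -8 reads at the summit (-5 at a fold of 10) and 4.04 percentage points among neighbours, a sign opposite to the -4.71 at a fold of 10, with a median distance of 39503 bp to the knockdown list, 0% within 100 kb and 0 knockdown-only peaks. Requiring a partner to cover 50% of the peak gave 1193 (11.6%), -33 bp, -4 reads, a median distance of 0 bp, 11.8% within 100 kb and 417 knockdown-only peaks. Limiting both lists to q-values of 1e-05 gave 935 (9.06%), 33554 bp, 10.5% and 181. Lists of equal length gave 549 control-only peaks again and 114 knockdown-only peaks. That cut fell on weak control peaks only. The number, share, width, summit reads and distances of control-only peaks could therefore not change, although they count among the 40. Strength by 20 summit reads gave 94 (1.45%), -144.5 bp, 22402.5 bp, 4.22 percentage points among neighbours (a changed sign), 2.13% within 100 kb and 22 knockdown-only peaks. Windows of 20 kb gave -9.26 percentage points among neighbours, 9.65 for members without another control peak (4.29 at 50 kb) and 0.364% of members close to another; 200 kb turned the second of these to -0.0041, where nearly all peaks have a neighbour, and 500 kb gave 23.9% of members close to another. Averaging the other strong peaks over bands of fold gave -87.4 bp and -2.26 reads. The ceiling on the knockdown summit, 18.6%, was 17.2% with the background of the nearest knockdown peak and 22.1% with the median ratio at shared peaks as scale. For these values the cause was not tested beyond the construction of each alternative. Control-only peaks outnumbered knockdown-only ones in the first setting and under all 8 alternatives that changed the list, the fold limit, the overlap or the strength measure. All 8 reuse the same pair of libraries, so they are not independent and do not show what another pair would give. The knockdown-only counts are given without shares, and a fold limit is not the same strength in both lists. At members with 12 to 14 control reads the knockdown calling limit was 4 or 5 reads, so small counts decide membership there.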

Other observations

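Some control-only peaks lay among several other control peaks in stretches where the knockdown list had none. Of the 162 members without a knockdown peak within 50 kb, 76 had another control peak within that distance and 8 had 3 or more, with 122 such peaks around them in all. The fullest stretch was around chr1:226679231-226679470, with a fold of 10.3, 13 reads and 5 other control peaks. Around chrX:39674930-39675138, with a fold of 14.5 and 19 reads, there were 4, and the nearest knockdown peak was at 126 kb. The peaks chr3:84805050-84805353, with 29 reads, and chr2:225787047-225787412, with 19 reads, also had 4 each. The 162 members had a median fold of 11.2 and a width of 208 bp, against 11 and 200 bp for the other 387. These stretches were picked after their values were seen. Such stretches were not counted around other control peaks, so they cannot be called particular to the set. Over all control peaks, 39.5% had no knockdown peak.

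In windows of 5 Mb, 328 of the 592 with a strong control peak held a member, and 4 held 5, the highest number. Those were 50 to 55 Mb on chromosome 7 with 5 of 22 strong control peaks, 90 to 95 Mb on chromosome 12 with 5 of 27, 185 to 190 Mb on chromosome 1 with 5 of 31, and 5 to 10 Mb on chromosome 11 with 5 of 32. The interval for the first was 7.82 to 45.4%, and the windows were chosen after their counts were seen.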
